A study of Bos taurus with 6 samples.

Results

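The endoplasmic reticulum (ER) translocon genes were followed on the Affymetrix Bovine Genome Array in pools of in vitro fertilized bovine embryos. The group holds 10 genes, namely TRAM1, SEC61A1, SEC61B, SEC61G, SEC62, SEC63 and the signal sequence receptor genes SSR1, SSR2, SSR3 and SSR4. Every probe set, a set of short oligonucleotides read as a single value, that the platform's annotation assigns to one of these symbols was kept. This gave 17 of the 24036 probe sets in the file and 10 of the 9155 genes named there. The group was selected with results of these same arrays known. A TRAM1 probe set was among those called between the embryo groups by significance analysis of microarrays (SAM). The differences between the groups are therefore given as descriptions of the members, without the p of any single member. Members past a threshold of p or false discovery rate are only counted and named, beside the share over all probe sets.

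The blastocyst group had 3 pools, lettered A, B and C, and so had the degenerative group. Each pool held 20 embryos graded on day 8 of culture, made from oocytes of abattoir ovaries and frozen bull semen, and all had compacted as morulae before. The labels name no breed, genotype or treatment. Blastocysts had a blastocoele and an inner cell mass that could be told apart, whereas degenerative embryos (the late degenerative grade) had stopped between morula and blastocyst. A degenerative pool is defined by morphology alone and averages over embryos that may have stopped at different stages. In pooled RNA of whole embryos, fewer cells of a type and less RNA per cell cannot be told apart.

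The translocon is the gate through which secreted and membrane proteins enter the ER. The signal recognition particle brings a ribosome with its new chain to the Sec61 channel, which is built from SEC61A1, the pore, and the small subunits SEC61B and SEC61G. TRAM1 lies beside the channel and helps certain signal sequences and membrane segments to enter. SEC62 and SEC63 assist chains that need more help, SEC63 by recruiting the lumenal chaperone HSPA5 (BiP), and the signal sequence receptor, or TRAP complex, made of SSR1 to SSR4, helps weak signal sequences to open the channel. In a blastocyst this route supplies the transporters and junction proteins of the trophectoderm, the outer epithelium, and the interferon that it secretes.

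The arrays gave log2 expression values with a floor of 2.12, and the 18937 probe sets that varied were tested. On each array 27.4% to 28.6% of probe sets were no more than 0.01 above the floor, and the array medians over the tested probe sets were 6.35 to 6.48. Pearson's r between pools across these probe sets was 0.972 to 0.994 within blastocysts and 0.936 to 0.987 within degenerative embryos. Degenerative pool A stood farthest from its group, with a mean r of 0.937, and lay at least 1 below all other pools in 1235 probe sets, against at most 309 for any other pool.

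Most translocon probe sets were somewhat lower in degenerative embryos, but few moved beyond the spread between pools. Of the 17, 14 were lower and 3 were higher, with a median log2 difference (degenerative minus blastocyst) of -0.28, compared to 48.3% lower and a median of 0.00 over all probe sets tested. The median of the members was -0.063 without degenerative pool A, when 11 were lower, and -0.074 without both A pools, when 12 were lower. The differences ran from -1.35 for a dim TRAM1 probe set to 0.51 for SEC61A1, and 12 of the 17 were smaller than 0.5 in either direction.

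In limma with Benjamini-Hochberg adjustment over all probe sets, no member passed an adjusted p of 0.15. At that threshold 0.0158% of all probe sets were lower and 0.00528% were higher. At an unadjusted p under 0.05, limma counted 2 members, TRAM1 and SEC62, both lower, where 5.27% of all probe sets were lower and 3.34% higher. SAM at a false discovery rate of 15% called 1 member as lower, TRAM1, beside 0.333% of all probe sets called lower and 0.0211% called higher. At a rate of 25% it called TRAM1 and SEC62, where 4.30% of all were called lower and 0.359% higher. In 4 probe sets, those of highest signal for TRAM1, SEC62, SEC63 and SSR3, every degenerative pool lay below every blastocyst pool, and no member showed the reverse, while 8.93% and 6.48% of all probe sets did so. The counts of members come from a contrast whose results were known when the group was chosen, and are not evidence for it.

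**Figure D1:**
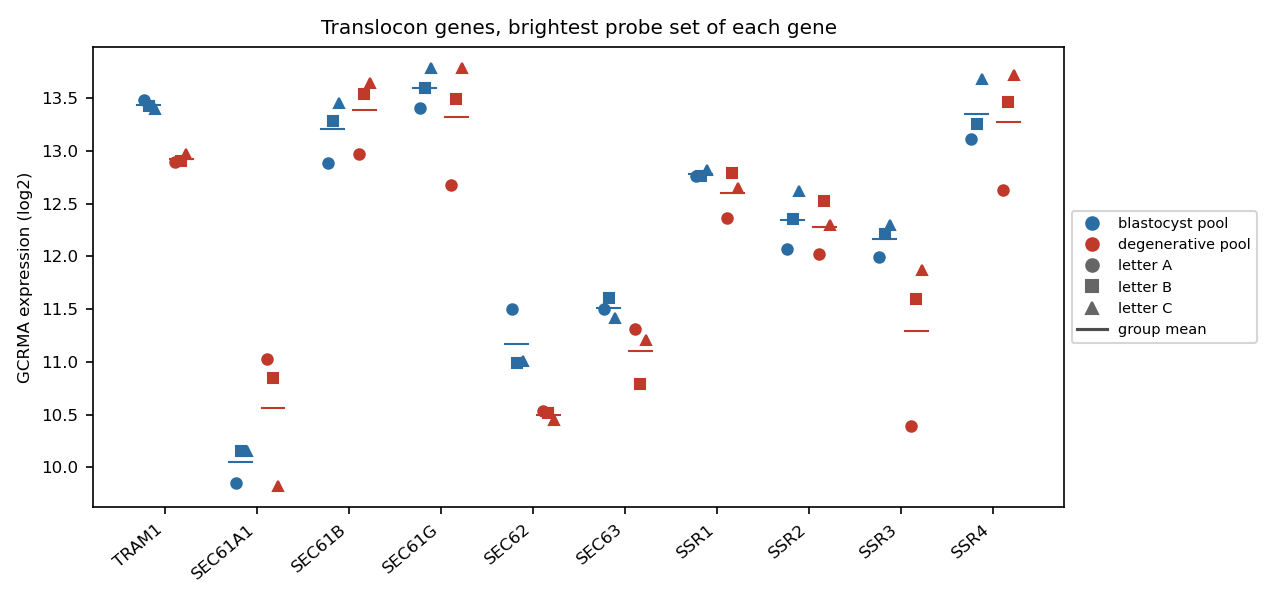
Level of the brightest probe set of each of the 10 genes, as log2 GCRMA values (vertical axis). Points are the 6 pools, with blastocysts in blue, degenerative embryos in red and the letter given by the symbol, and horizontal lines mark the means of the groups. The groups are apart for TRAM1, SEC62, SEC63 and SSR3 and overlap for the other 6 genes.

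TRAM1 had the tightest values of the group. In its bright probe set blastocyst pools A, B and C were at 13.48, 13.42 and 13.40, and degenerative pools A, B and C were at 12.89, 12.90 and 12.97. The pools of each group lay within 0.1 of each other and the groups were far apart on that scale. The means were 13.44 ± 0.04 (SD, n = 3 pools) and 12.92 ± 0.04 (SD, n = 3), so the mean differed by -0.51 on the log2 scale (standard error 0.05), or 1.43-fold. The difference was -0.59 between the A pools, -0.52 between the B pools and -0.43 between the C pools, and it lay between -0.54 and -0.49 when any pool was left out. The SD within groups, pooled over the groups, was 0.0423, larger than that of only 0.292% of the 11316 probe sets whose mean over the 6 pools reached 5. SAM no longer called this probe set when any 1 of the 6 pools was left out, when the arrays were centred on their medians, or when the median spread was added to each spread in place of the fudge factor of 1.03e-08.

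A second TRAM1 probe set gave another picture. Blastocyst pool A was at 8.33, while blastocyst pools B and C were at 3.27 and 3.78 and degenerative pools A, B and C at 3.45, 3.78 and 4.10. A single pool was thus high and the other 5 were dim and mixed between groups. Its log2 difference of -1.35 (standard error 1.5) became 0.25 without blastocyst pool A. Blastocyst pool A exceeded all other pools by at least 2 in 154 probe sets and by at least 4 in 4 probe sets, this one included at 4.23.

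The channel subunits went in different directions. SEC61A1, the pore-forming subunit, was at 9.85, 10.16 and 10.15 in blastocyst pools A, B and C and at 11.03, 10.85 and 9.82 in degenerative pools A, B and C. Degenerative pools A and B were above all blastocysts and degenerative pool C was below them. The log2 difference was 0.51 (standard error 0.36), the highest of the group, with a range from 0.28 without degenerative pool A to 0.89 without degenerative pool C. By letter the difference was 1.18 for A, 0.69 for B and -0.33 for C.

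SEC61B, a small subunit that spans the membrane beside the pore, was at 12.89, 13.29 and 13.45 in blastocyst pools A, B and C and at 12.97, 13.54 and 13.64 in the degenerative pools of the same letters. The groups overlapped, at 13.21 ± 0.29 and 13.38 ± 0.36 (SD, n = 3 each), with a log2 difference of 0.18 (standard error 0.25) that was 0.015 without blastocyst pool A and 0.38 without degenerative pool A. Within each letter, however, the degenerative pool was the higher, by 0.08 for A, 0.26 for B and 0.19 for C. With the letter as a block, the standard error was 0.06, but 0 probe sets of the whole array were called with that block. The labels do not say whether pools of the same letter belong together. Among the 17 probe sets SEC61B alone was higher within each letter, as were 15% of all probe sets, and 6 were lower within each letter, as were 19.0% of all.

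SEC61G, the other small subunit, was at 13.40, 13.60 and 13.79 in blastocyst pools A, B and C and at 12.68, 13.49 and 13.78 in degenerative pools A, B and C. Only degenerative pool A stood below the blastocysts. The log2 difference of -0.28 (standard error 0.32) was 0.04 without that pool. By letter, SEC61G was lower by little in C (-0.00) and B (-0.11) and by more in A (-0.72).

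SEC62 and SEC63, the membrane proteins that work with the channel on difficult substrates, were both lower in their brighter probe sets. SEC62 was at 11.50, 10.99 and 11.01 in blastocyst pools A, B and C and at 10.53, 10.52 and 10.45 in degenerative pools A, B and C. The degenerative pools lay close together, at 10.50 ± 0.05 (SD, n = 3), below blastocysts at 11.17 ± 0.29 (SD, n = 3). The log2 difference was -0.67 (standard error 0.16), or 1.59-fold, and ranged from -0.75 to -0.50 when single pools were left out. A dimmer SEC62 probe set overlapped between the groups, with a log2 difference of -0.17 (standard error 0.37) that became 0.14 without degenerative pool B.

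SEC63 was at 11.50, 11.61 and 11.42 in blastocyst pools A, B and C and at 11.31, 10.79 and 11.21 in degenerative pools A, B and C. Degenerative pool B was the lowest and degenerative pool A came nearest to the blastocysts. The log2 difference was -0.41 (standard error 0.16), between -0.51 and -0.25 when any pool was left out. The other SEC63 probe sets were also lower, by -0.30 (standard error 0.30) and -0.42 (standard error 0.47), but overlapped between the groups. Without degenerative pool A they were at -0.059 and 0.02. The 3 SEC63 probe sets did not follow each other from pool to pool (r of deviations from the group means between -0.50 and 0.63 over 6 pools).

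**Figure D2:**
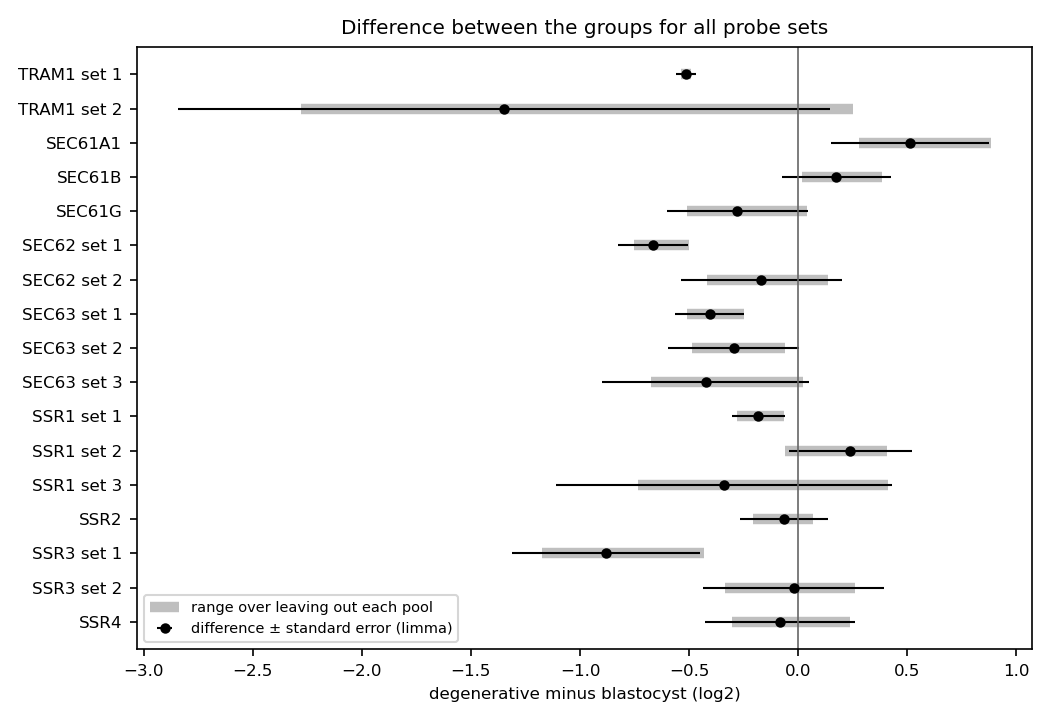
Difference between the group means (horizontal axis, degenerative minus blastocyst, log2) for all 17 probe sets, those of a gene numbered from the brightest. Points are differences with their standard errors from limma and gray bars span the values when each of the 6 pools was left out in turn. The bright sets of TRAM1, SEC62, SEC63 and SSR3 stay below 0 over the whole gray bar, SEC61A1 stays above 0, and 9 of the 17 bars reach 0 or cross it.

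The signal sequence receptor subunits differed most for SSR3, the gamma subunit, which crosses the membrane several times. Its bright probe set was at 11.99, 12.22 and 12.30 in blastocyst pools A, B and C and at 10.39, 11.60 and 11.87 in degenerative pools A, B and C. All degenerative pools were below all blastocysts, and degenerative pool A was the lowest by more than 1. The log2 difference of -0.88 (standard error 0.43) became -0.43 when degenerative pool A was left out and -1.17 when C was. A second SSR3 probe set showed no such order, with blastocysts at 8.42, 9.42 and 9.33 and degenerative pools at 9.57, 8.48 and 9.07, and a difference of -0.02 (standard error 0.41). Its sign turned without blastocyst pool B (0.16), blastocyst pool C (0.12) or degenerative pool B (0.26) and when the arrays were centred on the median of the probe sets tested (0.01), and it was -0.60 without both A pools.

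SSR1, the alpha subunit that binds calcium, had 3 probe sets. In the brightest blastocyst pools A, B and C were at 12.76, 12.77 and 12.82 and degenerative pools A, B and C at 12.36, 12.79 and 12.65. The groups overlapped, with a log2 difference of -0.18 (standard error 0.12), or -0.06 without degenerative pool A. In the next blastocysts were at 10.96, 10.95 and 11.02 and the degenerative pools at 11.82, 10.95 and 10.88, so that degenerative pool A was the highest there and the lowest in the former. The log2 difference was 0.24 (standard error 0.28), and -0.06 without degenerative pool A. The dimmest lay between 2.57 and 4.87, with blastocyst pool A the highest, and its difference of -0.34 (standard error 0.77) became 0.41 without that pool.

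SSR2, the beta subunit, was close in both groups. Blastocyst pools A, B and C were at 12.07, 12.36 and 12.62 and degenerative pools A, B and C at 12.02, 12.52 and 12.30. The log2 difference was -0.07 (standard error 0.20), and its sign changed without blastocyst pool C (0.07) and without degenerative pool A (0.06).

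SSR4, the delta subunit, which has most of its length in the ER lumen, was at 13.12, 13.26 and 13.68 in blastocyst pools A, B and C and at 12.63, 13.47 and 13.72 in degenerative pools A, B and C. Only degenerative pool A was below the blastocysts. The log2 difference was -0.08 (standard error 0.34), and 0.24 without that pool. With 3 pools a group, differences of this size in SSR2 and SSR4 were not detectable beyond the spread between pools.

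**Figure D3:**
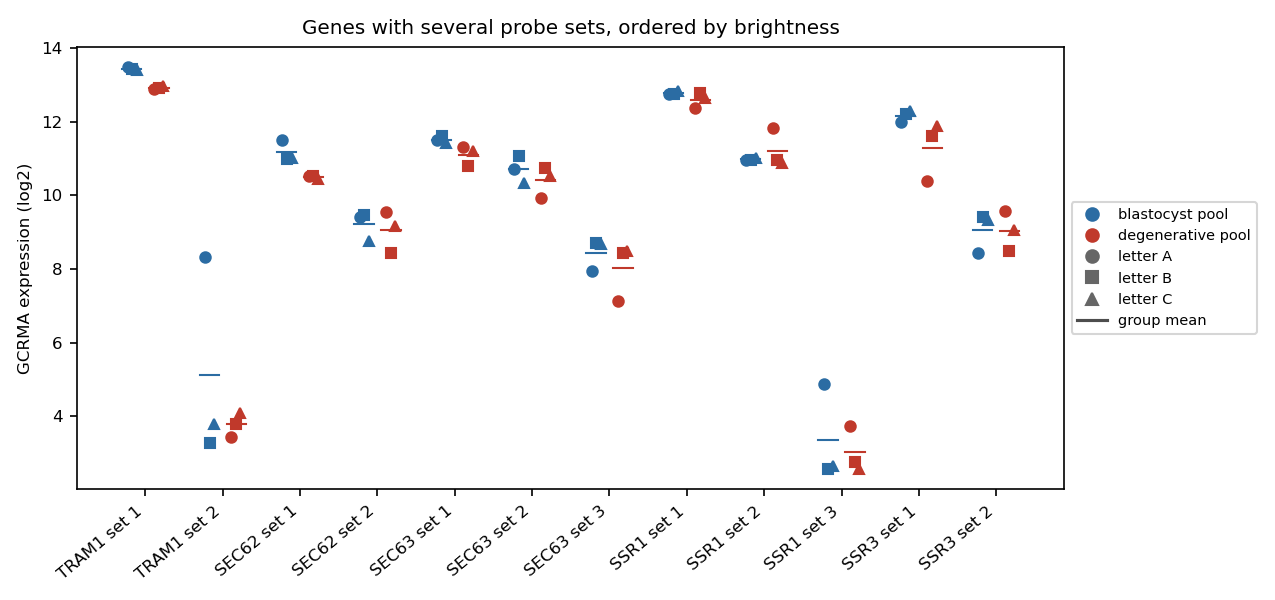
Log2 GCRMA values (vertical axis) for the 5 genes with several probe sets, numbered within a gene from the highest mean. Points are pools, colored by group and shaped by letter, and lines are group means. The second TRAM1 set is high in blastocyst pool A only, and degenerative pool A takes opposite ends in SSR1 sets 1 and 2.

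Probe sets of the same gene often did not follow each other. Over the 6 pools, Pearson's r of the levels was 0.47 for the TRAM1 probe sets, 0.29 for those of SEC62 and -0.26 for those of SSR3. For SSR1 the brightest and the next had r = -0.89. Of the SEC63 pairs the values were 0.10, 0.69 and -0.00. These correlations describe 6 arrays on which the probe sets share their normalization, and probe sets of a gene can lie in different parts of its transcripts. The array therefore gave no single value for these 5 genes.

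Within the groups, a measure that the group difference does not enter, the brightest probe sets of the small subunits moved together. The deviations of SEC61G from its group means had an r of 0.99 with those of SSR3 and of 0.98 with those of SSR4 over the 6 pools. Other probe sets of these genes differed. The deviations of the second SSR3 probe set had r = -0.38 with those of the brightest. For the next SSR1 probe set this r was -0.89. SEC61B had an r of 0.94 with SSR4 and of 0.93 with SEC61G. SEC61A1 ran the other way from SEC61G, with r = -0.66, but had r = 0.03 with SSR2, and its lowest r was -0.85, against TRAM1. The deviations of TRAM1 were very small, however, at most 0.048 in any pool, where SEC61A1 reached -0.74 in degenerative pool C. Without degenerative pool C, the r of SEC61A1 with SEC61G was -0.09. Without degenerative pool A, over 5 pools, SEC61G had an r of 0.98 with SSR3 and 0.94 with SSR4, SEC61B had 0.85 with SSR4 and 0.86 with SEC61G, and SEC61A1 had -0.35 with SEC61G. Of the 45 pairs of members (brightest probe sets), 22 had an r above 0, the median was -0.06, and 10 were above 0.8 (8 without degenerative pool A). The group as a whole thus had no common pattern. With all pools, the values above 0.8 were all among SEC61B, SEC61G and the signal sequence receptor genes. Without degenerative pool A, SEC61A1 had an r of 0.93 with SSR1. SSR1, above 0.8 with SEC61G, SSR3 and SSR4 over all pools, then had -0.24, -0.34 and 0.04 with them.

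**Figure D4:**
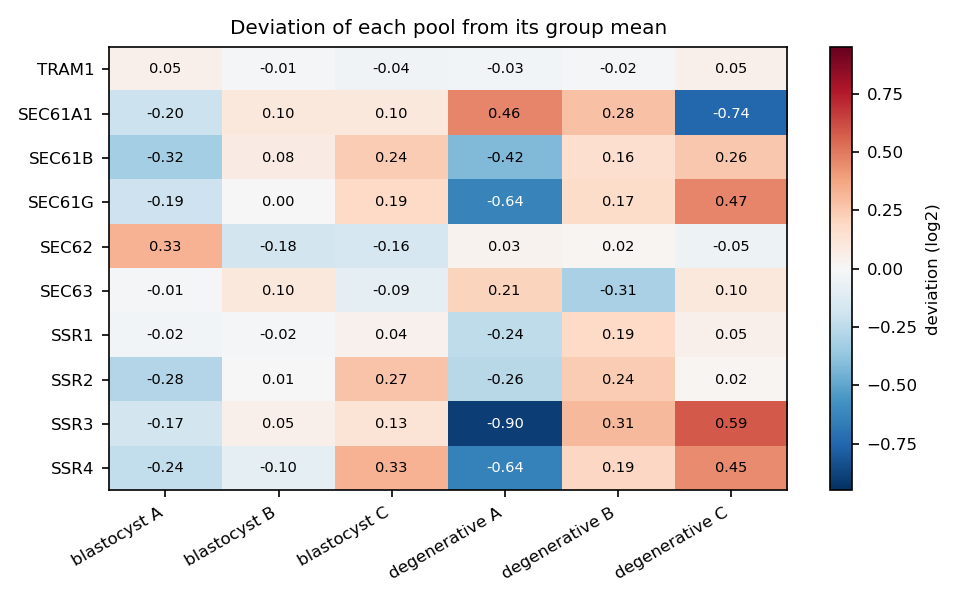
Deviation of each pool from the mean of its own group (log2, color and printed value) for the brightest probe set of each gene. SEC61B, SEC61G and SSR1 to SSR4 are below their group mean in both A pools, down to -0.90 for SSR3 in degenerative pool A, where SEC61A1 is at 0.46.

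In their brightest probe sets these 6 genes (SEC61B, SEC61G and SSR1 to SSR4) were lowest in the A pool of both groups. This held for 31.3% of the 8189 named genes taken with 1 probe set each. Among the 10 members, 7 were lowest in blastocyst pool A and 7 in degenerative pool A, where the shares over all named genes were 54.6% and 44.5%. In all of these shares a gene with equal values in several pools, as at the floor, counted as lowest in each, which raises them. The median deviation of the members was -0.18 in blastocyst pool A and -0.25 in degenerative pool A, compared to -0.03 and 0.00 over all named genes. The labels do not say whether a letter marks a shared day, and the part of the letter in these values was not tested.

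The bright TRAM1 probe set was set against the 7425 other named probe sets whose mean over the 6 pools reached 5. The 5 with the highest Pearson's r over the 6 pools were TIPARP (0.992), CEP44 (0.991), DAPP1 (0.99), LHFPL2 (0.989) and RPL24 (0.987). TIPARP, an ADP-ribosyltransferase, was at 10.75, 10.58 and 10.61 in blastocyst pools A, B and C and at 9.88, 9.96 and 9.93 in degenerative pools A, B and C. DAPP1, an adaptor of phosphoinositide signaling, had a log2 difference of -1.59, against -0.59 for CEP44, a centrosomal protein. With 6 arrays such an r follows mainly from a step between the groups with little spread inside them. In the gene order of the ARS-UCD2.0 assembly TIPARP is a protein-coding neighbor of SSR3, as is KCNAB1, and no member neighbors another member.

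Other genes of the route into the ER were taken from lists, with the probe set of the highest mean for each gene. None of the 52 genes of the 6 lists passed limma at an adjusted p of at most 0.15 or was called by SAM at 15% in either direction, and 6 were lower and 0 higher at an unadjusted limma p under 0.05, compared to 5.65% and 4.68% of all named genes. The signal recognition particle and its receptor were balanced, 3 of 6 measured genes lower, with a median log2 difference of -0.05, or 0.07 without degenerative pool A. SRP68, a protein of the particle, differed by 0.56 (standard error 0.22), while SRP72, its partner, differed by -0.32 (standard error 0.14) and SRP9 by -0.33 (standard error 0.29), or -0.049 without degenerative pool B.

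The signal peptidase complex, which cuts off the signal sequence, was lower in all 5 genes, with a median of -0.40, but without degenerative pool A in only 3, with a median of -0.22. SEC11C, a catalytic subunit, was at 11.38, 11.23 and 11.30 in blastocyst pools A, B and C and at 8.20, 10.37 and 10.22 in degenerative pools A, B and C. All degenerative pools were lower, most of all pool A, and the means differed by -1.71 on the log2 scale (standard error 0.65, limma adjusted p = 0.580), or by -1.01 without that pool. SPCS2 differed by -0.55 (standard error 0.20, limma adjusted p = 0.576) and SPCS3 by -0.40 (standard error 0.27), which became -0.35 and -0.22 without it. The mean over the 5 genes was 12.13 to 12.44 in blastocysts, 10.80 in degenerative pool A and 11.96 and 12.11 in degenerative pools B and C.

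Of 11 genes of the oligosaccharyltransferase, which attaches N-glycans to chains as they enter, 10 were lower, with a median of -0.17, and without degenerative pool A 8 were, with a median of -0.20. Without blastocyst pool A only 6 were lower, with a median of -0.03, and without degenerative pool C 6 were lower and 5 higher. OSTC differed by -0.45 (standard error 0.18) and DAD1 by -0.44 (standard error 0.39), which became -0.27 and -0.025 without degenerative pool A. TUSC3, whose difference of -0.17 was the median of the list, lay at or near the floor in all pools. Of 6 paralogs and partners of the translocon, 4 were lower, with a median of -0.16. TRAM2, the paralog of TRAM1, differed by -0.91 (standard error 0.58), SEC61A2, the paralog of SEC61A1, by -0.29 (standard error 0.20) and TMCO1, a channel-like protein, by -0.26 (standard error 0.12). Without degenerative pool A, SEC61A2 was at -0.14 and TMCO1 at -0.16, and TRAM2 was at -0.35 without degenerative pool C.

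Insertion of tail-anchored and other membrane proteins was represented by 14 genes, of which 9 were lower, with a median of -0.13, but without degenerative pool A only 5 were lower, with a median of 0.07. CAMLG, a receptor for tail-anchored proteins, differed by -0.53 (standard error 0.16, limma adjusted p = 0.532) and EMC2, a subunit of the ER membrane complex, by -0.80 (standard error 0.26, limma adjusted p = 0.547), whereas SGTA, which hands over tail-anchored chains in the cytosol, differed by 1.10 (standard error 0.43). Of 10 lumenal chaperones and their partners, 8 were lower, with a median of -0.43, and without degenerative pool A 7 were lower, with a median of -0.15. DNAJC3, a co-chaperone of HSPA5, differed by -0.86 (standard error 0.24, limma adjusted p = 0.532), DNAJB9 by -0.33 (standard error 0.10) and PDIA3, which forms disulfide bonds, by -1.02 (standard error 0.42), or -0.59 without degenerative pool A. HSPA5 itself, the partner of SEC63, was at 14.86 ± 0.12 in blastocysts and 14.70 ± 0.25 in degenerative embryos (SD, n = 3 each).

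**Figure D5:**
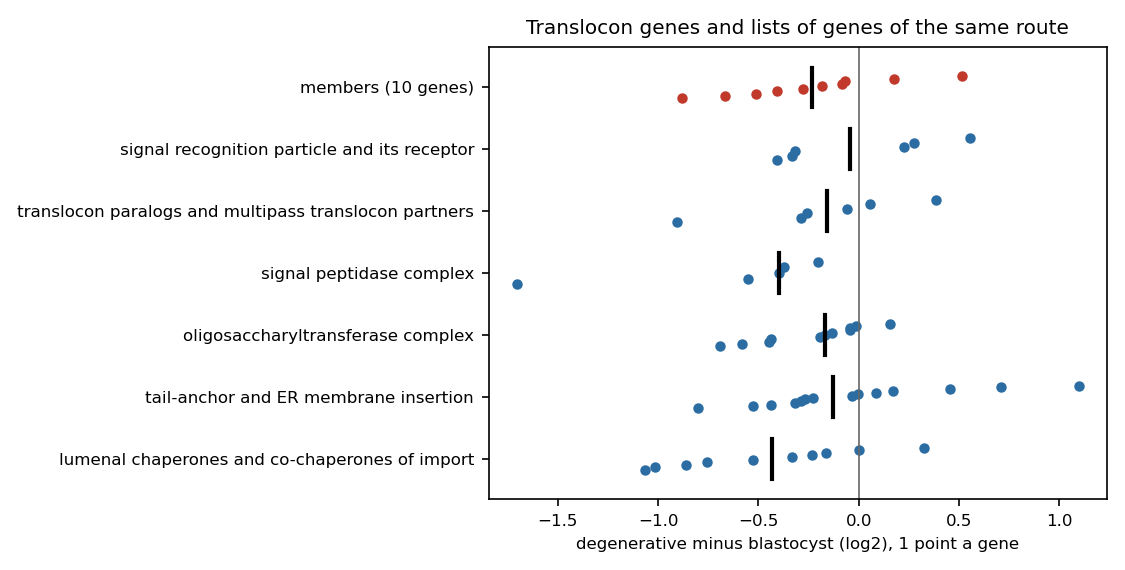
Difference between the group means (horizontal axis, degenerative minus blastocyst, log2) with 1 point a gene, for the 10 translocon genes (red) and 6 lists of genes of the same route (blue). Black bars are medians, which run from -0.43 for the lumenal chaperones to -0.05 for the signal recognition particle and its receptor with all pools. Without degenerative pool A the medians of these were -0.15 and 0.07.

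Markers of the cell types of the embryo were read in the same pools. None of them passed limma at an adjusted p of at most 0.15 or was called by SAM at 15%. Of 8 measured trophectoderm markers, 7 were lower in degenerative embryos, compared to 45.5% of all named genes. Their mean was 10.87 to 11.46 in blastocyst pools and 9.83 to 10.69 in degenerative pools. Only 5 of the 8 were lower without blastocyst pool A, and likewise without degenerative pool C. The median log2 difference of -0.60 became -0.11 without both A pools, when 6 were lower. TFAP2A, a transcription factor of the trophectoderm, differed by -2.90 (standard error 0.63, limma adjusted p = 0.470), or -2.25 without degenerative pool A. PTGS2, a prostaglandin synthase, differed by -1.005 (standard error 0.24) and the keratin KRT19 by -1.18 (standard error 0.66), the latter by -0.51 without that pool. The interferon gene IFNT2 differed by -1.01 (standard error 0.86), or -0.10 without degenerative pool A. The epithelial keratin KRT18 was high in all pools, at 15.17 to 15.65, with a difference of -0.06 (standard error 0.15). KRT8 differed by -0.04 (standard error 0.87), or by 0.72 without blastocyst pool A, and TEAD4 by 0.02 (standard error 0.27).

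The 3 measured markers of the inner cell mass had higher means in degenerative embryos, 1.03 for SOX2, 0.48 for POU5F1 and 0.51 for KLF4, with list means of 11.11 to 11.26 in blastocyst and 11.40 to 12.39 in degenerative pools. Of 5 hypoblast markers 3 were higher, COL4A1 by 0.62 (standard error 0.29), GATA4 by 1.17 (standard error 0.77) and HNF4A by 0.15 (standard error 0.36). GATA6 differed by -0.05 and PDGFRA by -0.03. Without blastocyst pool A 3 of the 5 were lower, HNF4A among them at -0.06. The list means were 8.80 to 9.60 in blastocyst and 9.48 to 9.69 in degenerative pools. Of 8 markers of cumulus and granulosa cells, which surround the oocyte, 4 were lower and 4 higher, with list means of 3.86 to 5.10 and 4.28 to 5.20. INHA and LHCGR were at or near the floor and FSHR was at 2.12 to 3.03, but INHBA was at 3.71 to 7.68 in blastocyst and 7.84 to 9.03 in degenerative pools. Its difference was 2.51 (standard error 1.14), and 1.37 without blastocyst pool A. The groups did not overlap for INHBA, as for 6.48% of all probe sets in that direction. HAS2 was at 9.92 to 11.80 over all pools, PTX3 reached 8.36 and 7.22 in degenerative pools B and C, and CYP19A1 reached 6.69 in blastocyst pool C. Only 8 of 12 listed trophectoderm markers and 3 of 8 listed inner cell mass markers had a probe set named for them alone. CDX2, GATA3 and NANOG had none in the annotation used and were not analysed here. The part of these cell types in the translocon values was not tested.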

How the data were processed

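RNA from pools of 20 embryos was linearly amplified, labeled and hybridized by the authors, 1 array a pool. The authors deposited 1 log2 value per probe set and array, made with GCRMA, release 2.14.1 according to the submitters' processing notes, which subtracts a background predicted from probe sequence, equalizes the distributions of the arrays by quantiles and summarizes probes by median polish. Dim values are compressed at the floor, and arrays have no read depth, so the number of pools limits the precision.

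From these values, 20 control probe sets and 5079 with a single value were dropped, which left 18937 for limma 3.58.1 under R 4.3.3 (lmFit, eBayes, Benjamini-Hochberg) and for SAM, the methods' test, rewritten from its description (20 relabelings, fudge factor by the smallest coefficient of variation, mean number of false calls), which gave 67 calls at 15% (with the share of probe sets taken as unchanged estimated at 0.781). Both were tested on simulated data. Probe sets were named from the annotation of the platform, with old symbols replaced by those of the ARS-UCD2.0 gene table. The members and lists were chosen with earlier results of these data known. From each list of pathway genes the 3 genes with the smallest limma p were named. Markers and other genes were chosen after their values were seen.

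Deviations from the group means correlated between pools of the same letter across probe sets (r = 0.373 for A, 0.180 for B and 0.275 for C), so the letter was also used as a block. Each pool held other embryos, and p-values measure the spread between pools. According to the paper, the embryos came from a small set of bulls with several bulls to a pool, so pools can share sires. Alternatives were array centring, a filter on dim probe sets, the block, other settings of limma and SAM, leaving out each pool and, added after seeing the data, both A pools and, for the lists and correlations, each pool. Probe and gene sequences were not used here.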

Additional observations from a re-analysis of the deposited data

How the results depend on the processing

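The 0 members called by limma stayed 0 with either centring of the arrays, without dim probe sets, with the letter as a replicate block (0 of all probe sets called), with a trended and robust prior, and without any 1 pool or both A pools. Limma called 1 member with array weights (57 probe sets in all) and 1 at an adjusted p of at most 0.25 (30 in all). The 1 member called by SAM became 0 with the arrays centred on the median of the probe sets tested (12 in all) or of those with a mean of at least 5 (4 in all), 0 with the median spread as the fudge factor (1 in all), 0 without any 1 pool (range 0 to 0, with 1 to 14 in all) and 0 without both A pools (15 in all), and it was 2 at a rate of 25% (883 in all). The median log2 difference of the members ranged from -0.31 to -0.063 when single pools were left out, the latter without degenerative pool A, and was -0.074 without both A pools. The count of members without overlap was 3 to 5 with either centring, without dim probe sets and without any 1 pool, and 7 without both A pools, where groups of 2 overlap less often by construction. With 1 probe set a gene, 8 of 10 were lower. Of the 17 probe sets, 8 kept their sign with the arrays centred and without single pools or both A pools, and 9 did not. The causes were not tested. Dim signals limit the dimmer TRAM1 and the dimmest SSR1 probe sets.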

Other observations

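Some genes of the oligosaccharyltransferase and signal peptidase lists were lowest in the A pool of both groups, as were 31.3% of all named genes, with ties counted as lowest. OST4, a very small subunit of the oligosaccharyltransferase, was at 10.90 in blastocyst pool A and 10.27 in degenerative pool A, against 12.15 to 12.35 in the other 4 pools. TMEM258, of the same complex, was at 10.71 and 9.16 in the A pools and at 11.68 to 11.85 in the others. KRTCAP2, also of that complex, was at 9.33 and 7.61 in the A pools and at 10.17 to 10.46 in the others. SPCS1, of the signal peptidase, was at 11.93 and 11.16 in the A pools and at 12.56 to 12.87 in the others. Other genes of these lists did not share this order. OSTC was at 13.48 in blastocyst pool A and 13.40 in B, SPCS2 had its highest value in blastocyst pool A, and STT3A had its highest value in degenerative pool A, at 13.79, against 12.14 to 13.10 elsewhere. These genes were chosen after their values were seen, and the cause was not tested.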
